A study of Mus musculus with 6 samples.

Results

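Potassium channel genes were followed in the enhancer-promoter predictions of cultured mouse oligodendrocyte precursor cells (OPCs), the glial cells that divide in the brain and give rise to oligodendrocytes. The members were all genes whose GENCODE M21 symbol starts with Kcn and whose biotype is protein-coding. Of 94 such genes, 85 were listed as a target gene in at least 1 of 2 prediction tables, 61 in both, 12 only in the table of untreated cells, 12 only in the table of cells given interferon-γ (IFN-γ) and 9 in neither (Kcna4, Kcna7, Kcne1l, Kcne2, Kcng3, Kcnh3, Kcnj6, Kcnk9 and Kcnk18). Among all 21951 protein-coding genes of the annotation, 67.9% were listed in at least 1 table and 47.5% in both. The corresponding shares of the potassium channel genes were 90.4% and 64.9%.

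The cells of both groups were primary OPCs of the genotype Sox10-Cre/RCE, labelled C57BL/6j (the Cre parent was of that strain, and the RCE reporter parent of mixed C57BL/6 and CD1 descent), taken from brains of pups aged 4 to 6 days, sorted for Sox10-GFP by flow cytometry or for CD140a with magnetic beads, and grown with bFGF and PDGF-AA. In this line GFP marks cells in which Cre, driven by Sox10, was active. Several brains were pooled per experiment. Ctr-OPCs received medium alone and IFN-γ-OPCs were given the cytokine at 100 ng/mL, begun 24 h after passaging and kept on for 48 h. The series holds 6 libraries of H3K27ac HiChIP, a method that ligates chromatin contacts and pulls down those carrying the acetylated histone mark of active elements, with 3 libraries per condition. The deposited values come from 2 tables, 1 per condition, each made from all 3 libraries of its condition. No value therefore has a replicate error, no test between the conditions was possible, and the depth behind the tables is unknown. Every difference below is a difference between these 2 tables. Where 2 values follow each other, the first is that of Ctr-OPCs and the second that of IFN-γ-OPCs. The potassium channel genes had 160 element-gene pairs in the Ctr-OPC table and 190 in the IFN-γ-OPC table, of 66637 and 71478 pairs in all.

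Potassium channels let potassium ions flow across the membrane and pull its voltage toward rest. Inward rectifiers and 2-pore-domain channels set the resting voltage, voltage-gated channels open on depolarisation, calcium- and sodium-activated channels respond to ions inside the cell, and auxiliary subunits alter the gating or traffic of the pore-forming ones. Glial precursors are known to express delayed and transient voltage-gated currents, and maturing oligodendroglia express inward rectifiers such as Kir4.1, which help to take up potassium released by active axons.

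The activity-by-contact (ABC) model scores each pair of a candidate element and a gene. The score is the element's activity times its contact with the promoter, divided by the sum of that product over every element near the gene. It is thus a share, and the sum is called the gene total here. Activity combines ATAC-seq (open chromatin) and H3K27ac CUT&RUN signal over the element, and contact comes from HiChIP at 5 kb bins. A pair scoring above 0.05 was called a connection. The OPC identity of the cultures was checked through the promoter activity quantile, the rank of a promoter's activity among genes on a scale from 0 to 1. All 7 OPC markers (Pdgfra, Cspg4, Ptprz1, Sox10, Olig1, Olig2, Gpr17) were listed in both tables, with quantiles from 0.851 to 0.995 in Ctr-OPCs and from 0.815 to 0.994 after IFN-γ. The median quantile was 0.669 and 0.706 for 4 of 5 mature oligodendrocyte markers, 0.696 and 0.631 for 4 of 5 astrocyte markers, 0.777 and 0.764 for 5 of 5 neuronal markers, and 0.621 over 3 and 0.614 over 4 of 5 microglial markers. Of 3 endothelial markers, 1 was listed in Ctr-OPCs and all after IFN-γ, with medians of 0.728 and 0.466. Single markers of other cell types reached into the OPC range: the neuronal Tubb3 had 0.870 and 0.868, the astrocytic Slc1a2 0.817 and 0.856 and the microglial P2ry12 0.782 and 0.825, beside 0.851 and 0.815 for Pdgfra. Aqp4 (astrocyte) and Itgam (microglia) were in neither table. The part of other cell types in the values below was not tested.

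A connection was found for 25 of the 73 potassium channel genes listed in Ctr-OPCs and for 26 of the 73 listed after IFN-γ, or 34.2% and 35.6%. The shares over all protein-coding genes listed were 31.7% and 33.1%, so the members lay near the background. They held 28 connections in Ctr-OPCs and 30 after IFN-γ. Connections were found for 34 genes in either table and 17 in both, while 51 listed genes had none. More connections in IFN-γ-OPCs were counted for 10 of 85 genes (11.8%, against 12.7% of protein-coding genes), fewer for 9 (10.6%, against 10.9%), and 15 connected genes had the same number. Every change was by 1 connection except that of Kcnk10. Many scores lay close to the cut-off: in Ctr-OPCs the best score of 11 members was at most 0.005 below it and of 4 members at most 0.005 above it, and in IFN-γ-OPCs these numbers were 3 and 2. With a cut-off of 0.1 the order of the conditions turned, to 12 and 9 connections, with more for 4 genes and fewer for 7.

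**Figure D1:**
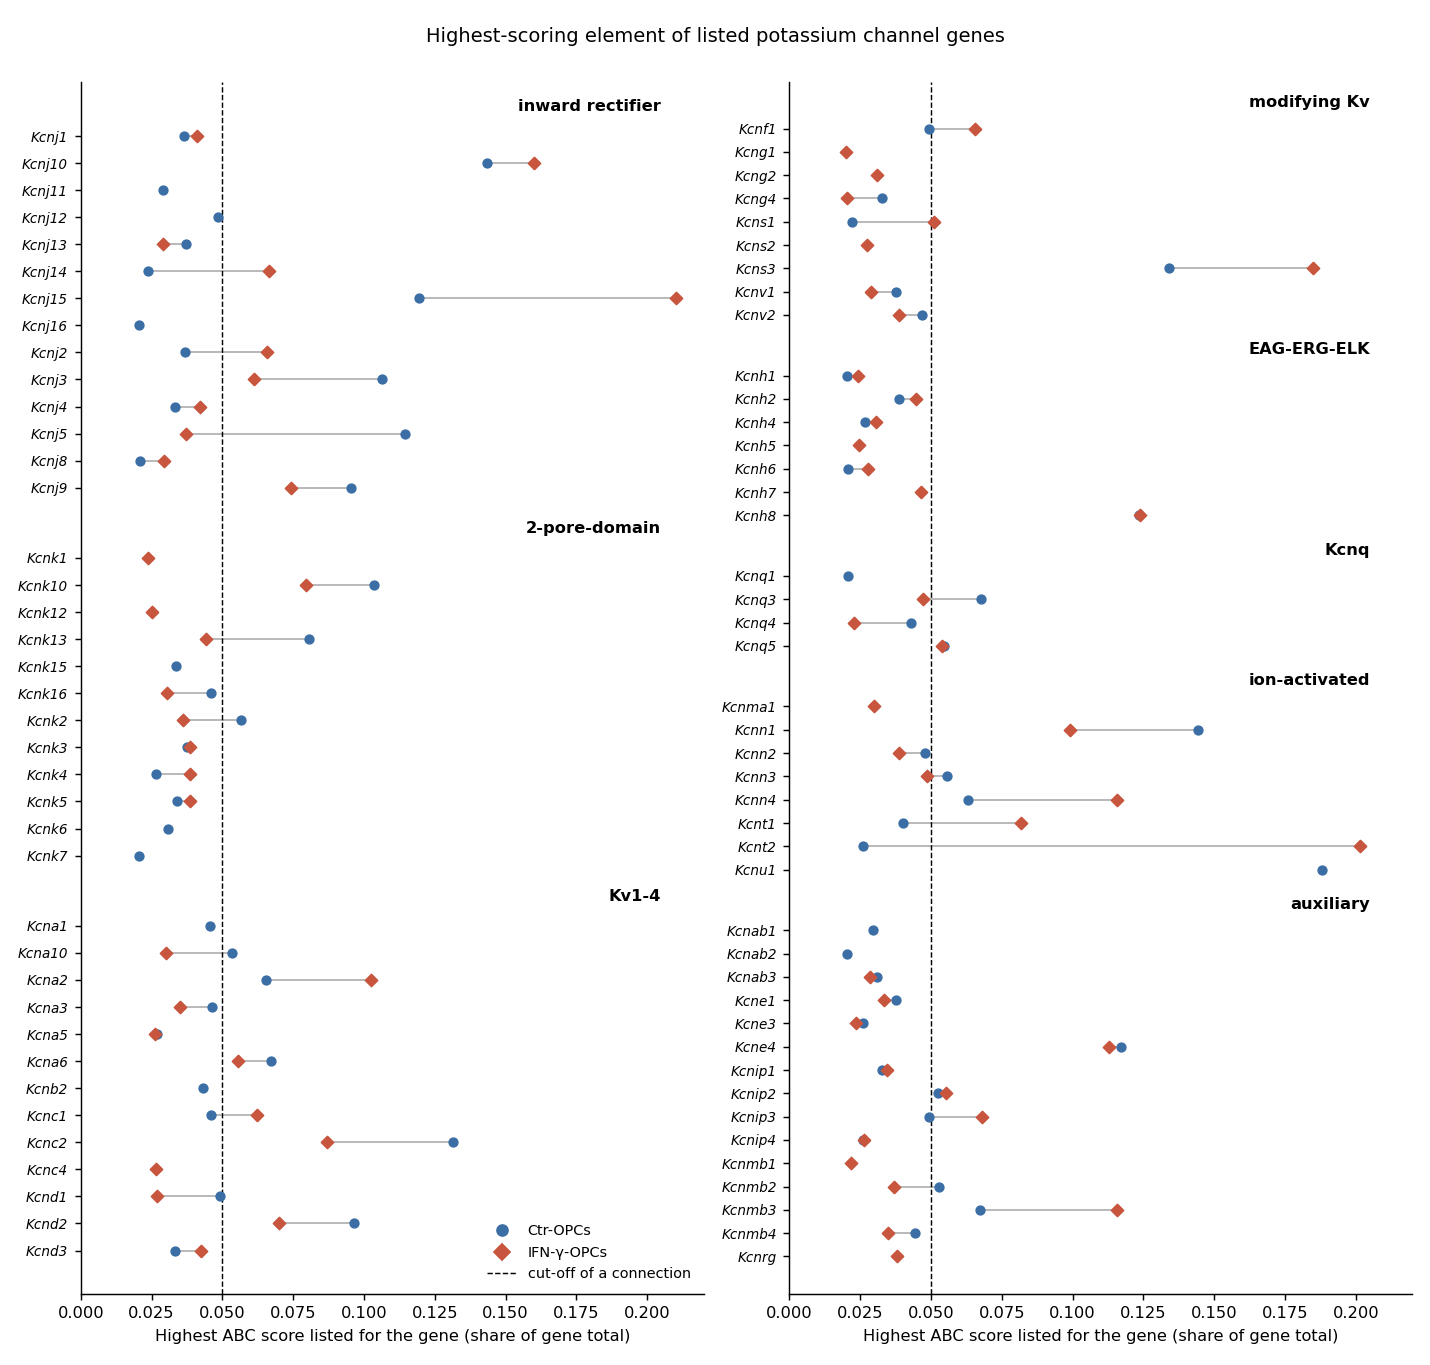
Highest ABC score (x axis, share of the gene total) of the potassium channel genes listed in at least 1 table, with a few genes not shown, grouped by subfamily, with Ctr-OPCs as circles, IFN-γ-OPCs as diamonds and the cut-off of 0.05 as a dashed line. Most of the genes shown lie below the cut-off in every table that lists them, and Kcnt2 has the widest gap between its 2 points, 0.0259 and 0.202.

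The elements behind the strongest connections found in both conditions are shown by sequence. These are the central 300 bases of the Ctr-OPC element, taken from the GRCm38 genome on the plus strand, for the 4 genes with the highest mean score over both tables. The element of Kcnj15 lies in an intron of that gene (chr16:95264265-95264564), that of Kcns3 overlaps an exon of its gene, with the shown bases in the intron beside it (chr12:11149816-11150115), that of Kcnj10 in an intron (chr1:172349980-172350279) and that of Kcnh8 upstream of the gene, within the antisense gene Gm27217 (chr17:52601050-52601349). Capitals mark matches to 6 motifs searched on both strands.
Kcnj15: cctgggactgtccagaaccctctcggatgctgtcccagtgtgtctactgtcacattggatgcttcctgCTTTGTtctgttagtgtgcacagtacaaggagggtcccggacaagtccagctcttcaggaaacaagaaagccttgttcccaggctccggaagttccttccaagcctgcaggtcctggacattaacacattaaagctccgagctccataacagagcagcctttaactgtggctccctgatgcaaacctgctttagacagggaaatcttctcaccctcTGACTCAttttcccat
Kcns3: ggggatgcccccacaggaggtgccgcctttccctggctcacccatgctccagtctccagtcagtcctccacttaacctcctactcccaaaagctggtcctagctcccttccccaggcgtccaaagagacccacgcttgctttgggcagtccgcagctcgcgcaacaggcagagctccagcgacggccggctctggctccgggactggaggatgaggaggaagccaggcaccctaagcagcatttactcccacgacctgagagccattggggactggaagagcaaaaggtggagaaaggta
Kcnj10: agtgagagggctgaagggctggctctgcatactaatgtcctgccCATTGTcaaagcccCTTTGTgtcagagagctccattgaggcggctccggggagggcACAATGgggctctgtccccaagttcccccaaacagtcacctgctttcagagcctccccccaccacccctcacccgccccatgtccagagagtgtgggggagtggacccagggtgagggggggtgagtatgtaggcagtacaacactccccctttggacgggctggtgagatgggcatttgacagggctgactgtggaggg
Kcnh8: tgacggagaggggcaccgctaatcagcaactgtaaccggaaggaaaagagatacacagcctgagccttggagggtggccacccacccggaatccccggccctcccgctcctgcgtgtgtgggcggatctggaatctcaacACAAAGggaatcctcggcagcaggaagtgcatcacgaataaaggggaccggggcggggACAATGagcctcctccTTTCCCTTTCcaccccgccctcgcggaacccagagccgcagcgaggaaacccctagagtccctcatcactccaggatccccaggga
The motifs were TTCNNNGAA (GAS), TGANTCA (AP-1), CAGCTG (E-box), ACAATG and ACAAAG (SOX) and the ISRE pair (GAAA on either side of 2 bases). The element of Kcnj10 holds ACAATG at 2 places and ACAAAG at 1, that of Kcnh8 holds both SOX motifs and 1 ISRE pair, and that of Kcnj15 holds ACAAAG and TGANTCA once each. No match was found in the window of Kcns3. Among windows of the same length at all 33083 Ctr-OPC elements, 15.5% hold ACAATG, 26.95% ACAAAG, 26.3% CAGCTG, 9.14% TGANTCA, 8.51% TTCNNNGAA and 3.07% the ISRE pair. Of the 27 elements connected with potassium channel genes in Ctr-OPCs, 8 held ACAAAG, 4 CAGCTG, 4 the ISRE pair, 3 ACAATG, 3 TGANTCA and 1 TTCNNNGAA. Of the 29 connected after IFN-γ, 10 held ACAAAG, 7 CAGCTG, 6 ACAATG, 4 TGANTCA, 2 TTCNNNGAA and 1 the ISRE pair, where the shares of all 35906 element windows were 29.0%, 25.6%, 16.5%, 10.8%, 9.23% and 5.68%.

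Among inward rectifiers (Kcnj), 14 of 15 genes were listed, with 6 connections in Ctr-OPCs and 7 after IFN-γ. Kcnj10 encodes Kir4.1, the main inward rectifier of glia. Its TSS is at position 172341210 of chromosome 1 (mm10), and it had 2 connections in each table, both with elements in its own introns. The element 8.92 kb from the TSS scored 0.143 in Ctr-OPCs and 0.160 after IFN-γ, with an activity of 7.54 and 7.002 and a contact of 0.0278 and 0.0339. The element 1.77 kb from the TSS scored 0.115 and 0.0998, with an activity of 4.18 and 3.14. Kcnj10 had a promoter quantile of 0.957 and 0.947, the highest among inward rectifiers, and a gene total of 1.53 and 1.54. The nearer element was the less active in both tables.

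The distal intron element of Kcnj10 had 22 listed target genes in Ctr-OPCs and 20 after IFN-γ, of which 4 and 5 were connections. Its highest score was for Kcnj10 in both. Kcnj9 (Kir3.3, a G protein-gated channel), whose TSS lies 20.8 kb from that element, was connected with it at scores of 0.0954 and 0.0744.

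Kcnj15 (Kir4.2) was connected with 1 intron element 6.86 kb from its TSS. The score was 0.120 in Ctr-OPCs and 0.210 after IFN-γ, the highest of any member there, and the activity was 0.874 and 1.51, a fold of 1.73. Its contact was 0.123 in both tables and identical to the last digit. That value is what the tables' power law of distance gives at 1 bin. It was listed for 51 pairs in Ctr-OPCs and 70 after IFN-γ, and contacts that equal the power law at any whole number of bins for 119 and 146 pairs, 0.179% and 0.204% of all pairs. Whether reads stand behind these contacts cannot be told from the tables. Among potassium channel genes they were found for Kcnj15 in both conditions and for Kcnt2 in IFN-γ-OPCs. With the power law in place of every contact, the score of this element was 0.0693 and 0.126.

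Kcnj2 (Kir2.1, a strong rectifier) had a score of 0.0367 in Ctr-OPCs and 0.0659 after IFN-γ for an intergenic element 1.14 kb away, with an activity of 1.05 and 1.18 and a contact of 0.0253 and 0.0448. Kcnj14 (Kir2.4) had a connection only in IFN-γ-OPCs, scoring 0.0666, with an element in Grwd1 that was not listed for it in Ctr-OPCs. Kcnj3 (Kir3.1, G protein-gated) kept a connection at the same place, scoring 0.107 and 0.0612. The activity of this element was 0.921 over 1029 bp in Ctr-OPCs and 0.337 over 500 bp after IFN-γ, while its contact was 0.0279 and 0.0483.

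Kcnj5 (Kir3.4, G protein-gated) had 1 connection in Ctr-OPCs, scoring 0.115, with an element 2961 kb away in Gm33838. This was the most active of 33083 elements in the Ctr-OPC table, at 44.3 against a median of 0.866, and it had 110 target genes. In IFN-γ-OPCs its activity was 50.8, its contact with Kcnj5 was listed as 0 against 0.00171 in Ctr-OPCs, and the score was 0.0340. For this pair the contact of 0 enters the score at the power-law value alone, so the ratio of its adjusted contacts is a bound. Without that element the members had 27 connections in Ctr-OPCs and 8 genes had fewer after IFN-γ.

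Kcnj8 (Kir6.1, the pore of an ATP-sensitive channel) had no connection. Its best score was 0.0208 and 0.0294. Its promoter quantile was 0.428 in Ctr-OPCs and 0.733 after IFN-γ, and its gene total was 0.474 and 0.627, a log2 ratio of 0.40 that was the highest of the 61 members listed in both tables. Kcnj16 (Kir5.1, a partner of Kir4.1) was listed only in Ctr-OPCs, near both limits of the table, with a score of 0.0204 and a promoter quantile of 0.414.

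Among 2-pore-domain leak channels (Kcnk), 12 of 14 genes were listed and 3 connections were counted in each table, but they moved between genes. All 3 in IFN-γ-OPCs belonged to Kcnk10 (TREK-2, a mechanosensitive leak channel, TSS at position 98578310 of chromosome 12), which had 1 in Ctr-OPCs. Its element at 3.50 kb, overlapping an exon of Kcnk10, scored 0.104 and 0.0794, with an activity of 2.75 and 2.17. The neighbouring element at 4.14 kb, also over an exon, scored 0.0442 and 0.0545, with an activity of 1.17 and 1.49. An intron element at 15.7 kb scored 0.0452 and 0.0750, with an activity of 1.72 and 2.81. The contact of the nearer elements was 0.0271 and 0.0255 and that of the distal one 0.0185 and 0.0182. All 3 elements were thus listed for Kcnk10 in both tables, with contacts that lay close together and scores on different sides of the cut-off for 2 of them. Over all deposited pairs Kcnk10 had 3 pairs in Ctr-OPCs and 4 after IFN-γ.

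Kcnk13 (THIK-1, a leak channel best known from microglia) scored 0.0806 for an element over its own exon in Ctr-OPCs and 0.0235 after IFN-γ, with a contact of 0.0854 and 0.0337 and an activity of 1.08 over 855 bp and 0.680 over 500 bp. Kcnk2 (TREK-1) scored 0.0566 and 0.0363 for an intergenic element at 4.87 kb. A second Ctr-OPC element of Kcnk2, scoring 0.0336, overlapped the same IFN-γ-OPC element. Kcnk1 (TWIK-1) was listed only in IFN-γ-OPCs, with a best score of 0.0237. The gene total of the 7 genes of this subfamily listed in both tables had log2 ratios between -0.21 and -0.022, and 4 of them lay above the ratio of the protein-coding medians of the tables, so their direction turned with that scaling.

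Voltage-gated channels of the Kv1 to Kv4 types (Kcna, Kcnb, Kcnc, Kcnd) counted 15 listed genes of 17, with 5 connections in Ctr-OPCs and 6 after IFN-γ. Kcna2 (Kv1.2, an axonal delayed rectifier) was connected with an intron element in both tables, at 0.0654 over 500 bp and 0.103 over 711 bp, with an activity of 2.13 and 2.95. Kcna6 (Kv1.6) had 1 connection in each table, but with different intergenic elements. The element at 27.4 kb scored 0.0673 in Ctr-OPCs and 0.0374 after IFN-γ, with an activity of 4.54 over 901 bp and 3.14 over 500 bp. One at 6.20 kb, 807 and 500 bp wide, scored 0.0242 and 0.0556, with a contact of 0.0266 and 0.0701. Kcnd2 (Kv4.2, a transient A-type channel) likewise had a connection at 1.22 kb in Ctr-OPCs, scoring 0.0965, that was not listed in IFN-γ-OPCs, where an intron element at 11.3 kb scored 0.0700 after 0.0492 in Ctr-OPCs.

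Of the other Kv1 genes described in oligodendroglia, none had a connection. Kcna3 (Kv1.3, tied to OPC proliferation in earlier work) had best scores of 0.0464 and 0.0352 with a promoter quantile of 0.888 and 0.900. Kcna5 (Kv1.5) had 0.0269 and 0.0264. Kcna1 (Kv1.1) was listed only in Ctr-OPCs, with a best score of 0.0455. Kcna10 (Kv1.8) had a connection with an intron element only in Ctr-OPCs, at 0.0533. Kcnc2 (Kv3.2, a fast delayed rectifier) scored 0.131 in Ctr-OPCs and 0.0869 after IFN-γ for an intergenic element 0.813 kb from its TSS. The contact was 0.0462 and 0.0461, and the activity was 0.940 and 0.675. Kcnc1 (Kv3.1) was connected only in IFN-γ-OPCs, at 0.0623.

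The modifying subunits (Kcnf, Kcng, Kcns, Kcnv), which form no channel alone and join Kv2 pores, counted 1 connection in Ctr-OPCs and 3 after IFN-γ over 9 listed genes of 10. Kcns3 (Kv9.3) was connected in both, at 0.134 and 0.185. The activity of its element was 1.52 over 924 bp and 1.37 over 905 bp, and its contact was 0.0318 and 0.0490. Kcns1 (Kv9.1) scored 0.0207 and 0.0511 for an element 20.5 kb away in Stk4, with an activity of 2.29 and 1.59 and a contact of 0.0114 and 0.0405. Kcnf1 (Kv5.1) scored 0.0453 and 0.0656 for an intergenic element, with an activity of 0.658 over 500 bp and 0.854 over 937 bp. Kcng4 had no connection, and its gene total was 1.67 and 1.42. Kcnv1 had none either, and its gene total of 0.188 and 0.215 was the lowest of the members in both tables.

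In the EAG, ERG and ELK group (Kcnh), 7 of 8 genes were listed and Kcnh8 (Kv12.1, TSS at position 52602709 of chromosome 17) had the single connection in both tables. It scored 0.123 and 0.124 at 1.51 kb. The activity was 1.24 and 1.53 and the contact was 0.0479 and 0.0370, so the 2 parts differed in opposite directions. Kcnh2 (the ERG channel) had no connection, with best scores of 0.0387 and 0.0447 and a gene total of 1.18 and 1.01. In the Kcnq group, whose products carry the M-current that steadies the resting voltage, all 5 genes were listed. Kcnq5 (TSS at position 21961942 of chromosome 1) was connected in both tables with an element 550 kb downstream inside its own long intron, at 0.0546 and 0.0540. Its gene total was 0.272 and 0.324. Kcnq3 scored 0.0677 and 0.0471 for an intron element at 47.1 kb, with an activity of 4.05 over 500 bp and 5.23 over 680 bp and a contact of 0.00694 and 0.00322.

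Ion-activated channels had all 8 genes listed and 4 connections in each table. Kcnt2 (Slick, activated by sodium, TSS at position 140246158 of chromosome 1) had 1 element in each table, in its own intron at 8.04 kb. The score was 0.0259 in Ctr-OPCs and 0.202 after IFN-γ. The activity was 0.614 and 0.697. The contact was 0.0145 and 0.123, and the second of these equals the power law at 1 bin, as described for Kcnj15. The 7.91-fold difference in adjusted contact, the largest among the members, rests on that value. With the power law in place of every contact, the element scored 0.126 and 0.138. Kcnt1 (Slack) scored 0.0402 and 0.0818 for an intron element whose activity was 1.31 over 500 bp and 2.71 over 986 bp, with a contact of 0.0470 and 0.0447.

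Kcnn1 (SK1, a small-conductance calcium-activated channel) was connected with an intergenic element 2.49 kb from its TSS at position 70863258 of chromosome 8. It scored 0.144 and 0.0990, with a contact of 0.0584 and 0.0424 and an activity of 4.003 and 3.67. Kcnn3 (SK3) scored 0.0557 and 0.0290 for an intron element with an activity of 1.14 over 1189 bp and 0.570 over 957 bp. Kcnn2 (SK2) had best scores of 0.0477 and 0.0386. Kcnn4 (the intermediate-conductance channel, also used by lymphocytes and microglia) scored 0.0629 and 0.116 for 1 intron element, with an activity of 1.57 and 2.19 and a contact of 0.0454 and 0.0589. Kcnma1 (the BK channel) was listed only in IFN-γ-OPCs, with a best score of 0.0298. Kcnu1 (Slo3, known from sperm) had the highest score of any member in Ctr-OPCs, 0.188, for an element in Ash2l at 8.87 kb with 6 target genes. Kcnu1 was not listed in IFN-γ-OPCs. Its promoter quantile in Ctr-OPCs was 0.469, near the lowest value of 0.4 that the tables list, and whether the promoter or the score missed a limit in IFN-γ-OPCs cannot be told.

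Auxiliary subunits counted 15 listed genes of 17, with 6 connections in Ctr-OPCs and 5 after IFN-γ. Kcnmb3 (a BK β subunit) had 2 in each. Its nearer element scored 0.0673 and 0.116, with a contact of 0.0367 and 0.0650 and an activity of 1.12 over 1447 bp and 1.34 over 911 bp. Its gene total was 0.631 and 0.764, a log2 ratio of 0.28. Kcnmb2 scored 0.0527 and 0.0292 and Kcnmb4, the BK β subunit of brain, had best scores of 0.0443 and 0.0350. Kcne4, which inhibits several Kv channels, kept a connection over its own exon at 0.117 and 0.113, and a second one 55.4 kb away scored 0.0513 and 0.0313. A further Ctr-OPC element of Kcne4, scoring 0.0390, overlapped the IFN-γ-OPC element that scored 0.113. Kcnip3, a calcium sensor that binds Kv4 channels and also acts as the transcriptional repressor DREAM, scored 0.0493 and 0.0682 for an intron element and had a promoter quantile of 0.974 and 0.984. Kcnip2 was connected in both, at 0.0524 for an element of 2038 bp and at 0.0552 for one of 991 bp. After IFN-γ the wider element was overlapped by 3 elements, and the others scored 0.0271 and 0.0202, so the 2 scores cover different lengths. Kcnab1 and Kcnab2 (Kvβ subunits) were listed only in Ctr-OPCs, with best scores of 0.0295 and 0.0204, although Kcnab2 had the highest promoter quantile of the members there, 0.992. The deposited TSS of Kcnab1 lay outside the annotated gene, upstream of its start. Kcne1 had no connection, and its gene total of 1.34 and 1.07 gave the lowest log2 ratio of the members, -0.32.

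Of the 28 connections in Ctr-OPCs, 17 (60.7%, Wilson 95% interval 42.4 to 76.4, counting error only) were also connections in IFN-γ-OPCs. A further 8 were listed there below the cut-off, 2 were not listed for a gene that was, and 1 belonged to Kcnu1. Of the 30 connections in IFN-γ-OPCs, 17 (56.7%, interval 39.2 to 72.6) were connections in Ctr-OPCs, 11 were listed below the cut-off and 2 were not listed. The shares over protein-coding genes, 56.7% and 53.0%, lay within both intervals. The median distance of the connections to the TSS was 3.87 kb without and 3.54 kb with IFN-γ, against 5.05 and 5.53 kb over protein-coding genes, and 21 of 28 and 23 of 30 (75.0% and 76.7%, against 71.6% and 70.2%) lay within 10 kb. Both medians of the members are shorter than the 5 kb bin at which contact was read. The element overlapped the channel gene itself in 15 and 18 cases, in an intron without an exon for 9 and 12 of them, another gene in 4 and 5, and no gene in 9 and 7. Elements classed as genic made up 67.9% and 76.7% of the connections, against 76.7% and 74.8% over protein-coding genes. For 7 and 10 connections (25.0% and 33.3%, against 18.7% and 19.3% over protein-coding genes) the channel was the only target gene listed for the element. Connections over 100 kb were those of Kcnj5 and Kcnq5 in Ctr-OPCs and that of Kcnq5 after IFN-γ (7.14% and 3.33%, against 7.27% and 8.30% over protein-coding genes).

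**Figure D2:**
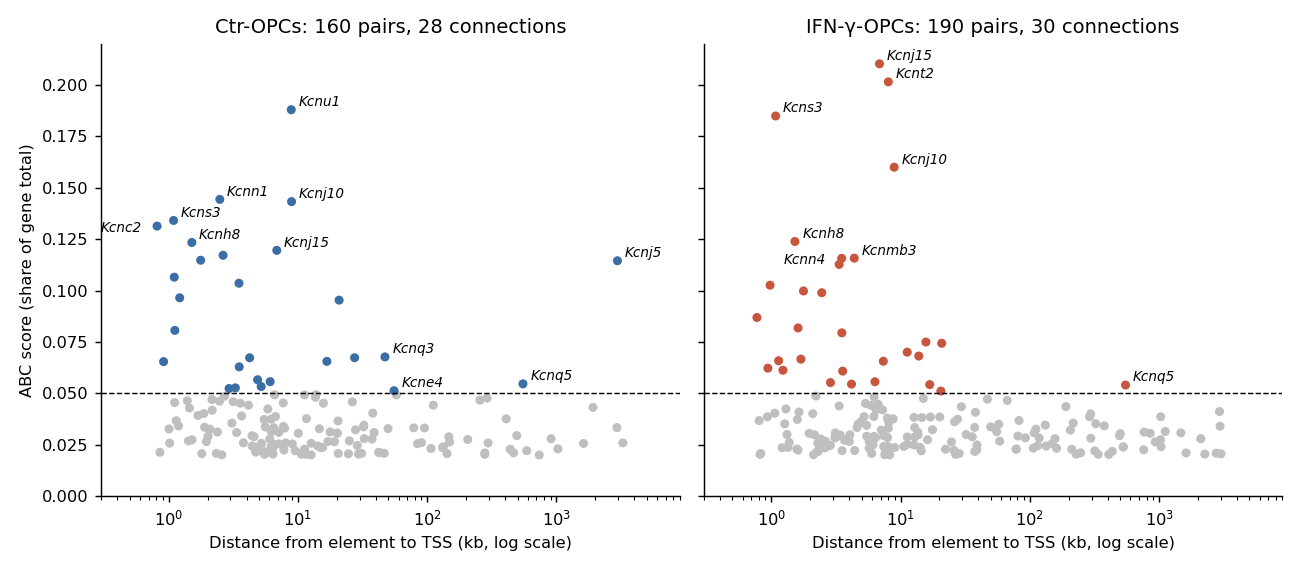
ABC score (y axis) against the distance between element and TSS (x axis, kb, log scale) for the 160 pairs of potassium channel genes in Ctr-OPCs and the 190 pairs after IFN-γ, with connections in colour, other pairs in grey and the cut-off of 0.05 as a dashed line. Connections gather within 10 kb, and those of Kcnj5 at 2961 kb and Kcnq5 at 550 kb stand apart.

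Activity and contact were compared over 36 pairs of 30 members that were matched between the tables and were a connection in at least 1. The median log2 ratio of activity, IFN-γ-OPCs over Ctr-OPCs, was -0.055 (SD over pairs 0.50), beside -0.089 over 5422 such pairs of protein-coding genes. The median for contact was 0.024 (SD 0.85), beside 0.065 (SD 0.55). The signs of the activity and contact medians of the members turned when each table was divided by its own median, to 0.053 and -0.025, and that of activity also turned, to 0.14, over the 15 pairs above a cut-off of 0.1. Without the pairs of Kcnt2 and Kcnj15 the SD of contact was 0.72, and without that of Kcnj5 as well it was 0.61. The protein-coding pairs, which ranged from -6.66 to 3.75, were not trimmed in this way, so these values cannot be set against their SD.

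Activity was over 1.5-fold higher in IFN-γ-OPCs for 3 of the 36 pairs (8.33%, against 9.33% of pairs of protein-coding genes), those of Kcnt1, Kcnj15 and Kcnk10. It was over 1.5-fold lower for 4 (11.1%, against 11.7%), those of Kcnj3, Kcnn3, Kcnk13 and Kcnip2. Activity is not given per base, and element widths differed between the tables: 51.7% of elements were 500 bp wide in Ctr-OPCs and 61.4% after IFN-γ. All 4 lower pairs had a narrower element in IFN-γ-OPCs. For 3 of the 36 pairs several elements of one table overlapped 1 of the other, and only 1 was matched. With their activities added up, Kcnip2 had 2.30 and 2.83, so its direction turned, Kcne4 had 1.49 and 1.23, which also turned, and Kcnk2 had 0.939 and 0.482, past 1.5-fold lower. The counts stayed at 3 higher and 4 lower. Among the 19 pairs with 500 bp in both tables, 2 were over 1.5-fold higher and 0 lower, with a median log2 ratio of -0.082. Contact was over 1.5-fold higher for 7 pairs (19.4%, against 13.5%) and over 1.5-fold lower for 4 (11.1%, against 9.26%). The higher ones were those of Kcnt2, Kcns1, Kcna6, Kcnmb3, Kcnj2, Kcnj3 and Kcns3, and the lower ones those of Kcnj5, Kcnk13, Kcnq3 and Kcnmb2. Of these, the pairs of Kcns3, Kcnj3, Kcnk13, Kcnj2, Kcnmb2 and Kcnmb3 lay under 5 kb from the TSS, less than the width of 1 bin. Their contacts are thus values of the same or neighbouring bins. Over the 36 pairs, which are few, the shares lay near the background, apart from higher contact. There 1 of the 7 was Kcnt2, and without the pairs of Kcnt2 and Kcnj15 contact was over 1.5-fold higher for 6 of 34.

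**Figure D3:**
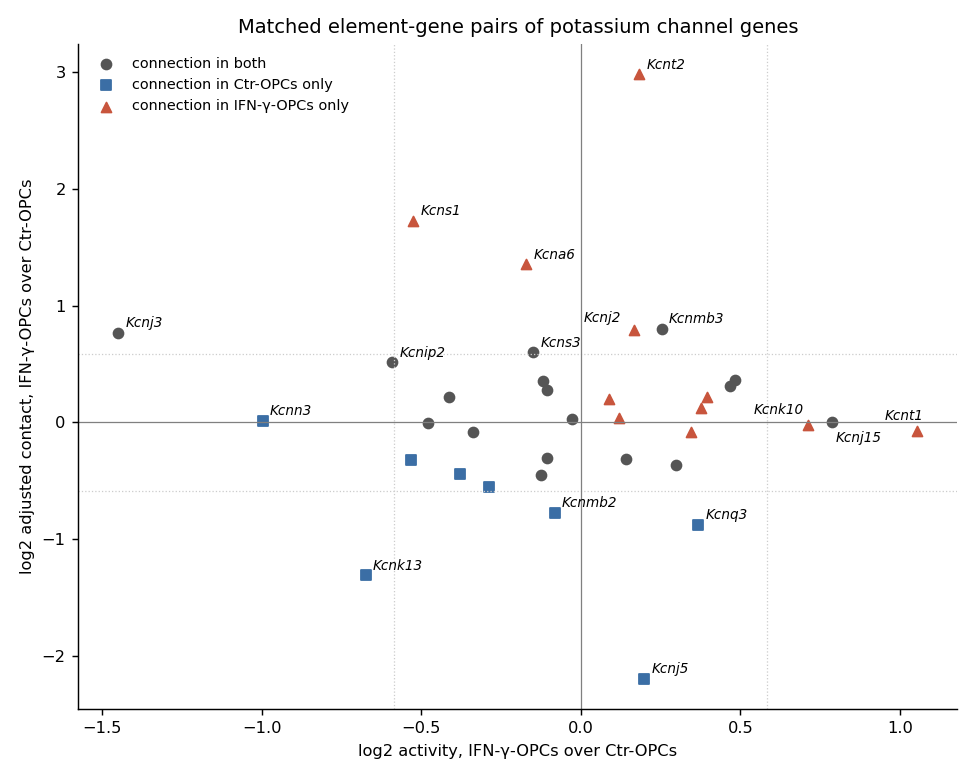
Log2 ratio of activity (x axis) against log2 ratio of adjusted contact (y axis), IFN-γ-OPCs over Ctr-OPCs, for 36 matched pairs of potassium channel genes, marked by the condition in which the pair was a connection, with 1.5-fold as dotted lines. Pairs past 1.5-fold in either value are named, and Kcnt2 and Kcnj5 lie at the ends of the contact axis, at 2.98 and -2.20, where 1 of the 2 contacts of each is the power-law value.

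The gene total, which counts every element near a gene and does not depend on the cut-off, could be compared for 61 members. Its median log2 ratio was -0.042, with 19 genes higher and 42 lower in IFN-γ-OPCs, beside -0.079 over 10428 protein-coding genes, of which 3372 were higher and 7056 lower. Dividing each table's totals by their protein-coding median turned the median to 0.038, with 35 members higher and 26 lower. No member passed 1.5-fold in either direction, while 0.575% of protein-coding genes were up and 0.134% down past that fold. The ratios reached from -0.32 (Kcne1) to 0.40 (Kcnj8). After Kcnj8, the highest were those of Kcnmb3, Kcnq5 (0.25), Kcnt2 (0.21) and Kcnv1 (0.19). Other low values were those of Kcnj5 (-0.24), Kcng4 (-0.23) and Kcnh2 (-0.23). By subfamily the median was highest for Kv1 to Kv4 channels, 0.020 over 11 genes, and lowest for the EAG, ERG and ELK group, -0.18 over 5 genes. Of those 5 genes all were lower as deposited and 4 were lower after the division.

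**Figure D4:**
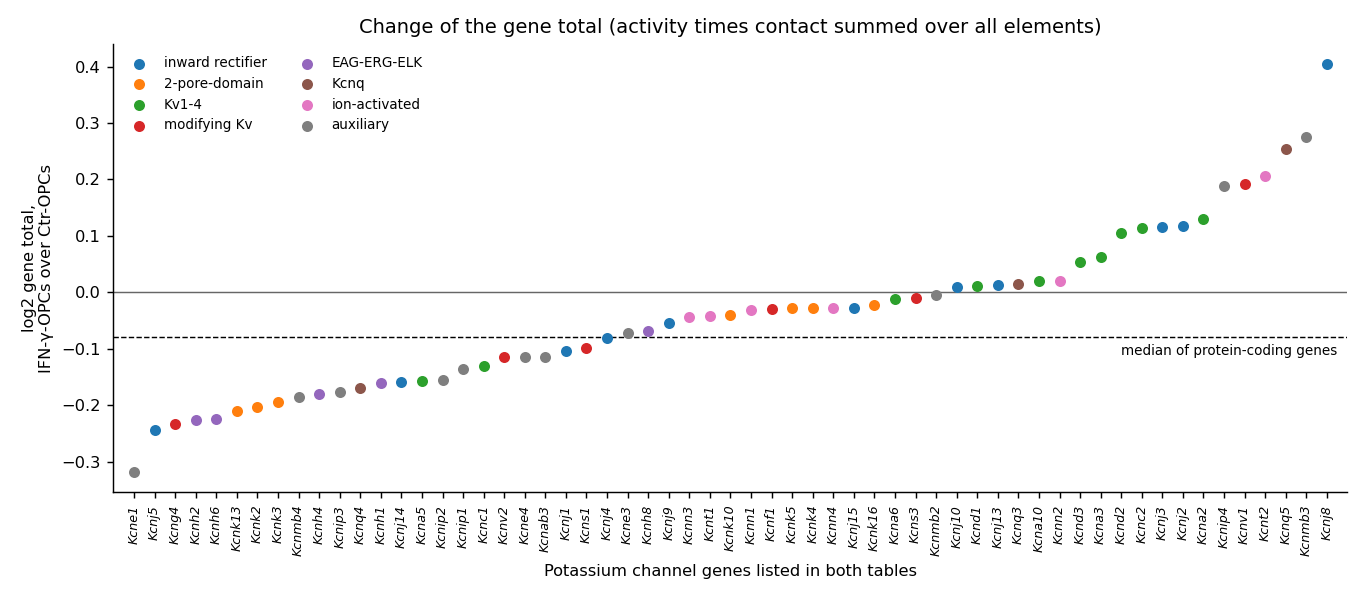
Log2 ratio of the gene total, IFN-γ-OPCs over Ctr-OPCs (y axis), for the potassium channel genes listed in both tables (x axis, sorted, with a few genes not shown), coloured by subfamily, with the median of protein-coding genes, -0.079, as a dashed line. The values run from -0.32 for Kcne1 to 0.40 for Kcnj8, and the subfamilies are mixed along the axis.

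Promoter activity of the members was compared by quantile. The median was 0.728 in Ctr-OPCs and 0.719 after IFN-γ over the genes listed in each, below the 0.804 and 0.803 of listed protein-coding genes. The quantile was over 0.1 higher in IFN-γ-OPCs for 5 of 61 genes (8.2%, against 5.94% of protein-coding genes) and over 0.1 lower for 5 (8.2%, against 6.43%). The higher ones were Kcnj8, Kcnh4 (0.465 and 0.689), Kcnmb2 (0.410 and 0.622), Kcnh6 (0.578 and 0.731) and Kcnj15 (0.457 and 0.581). The lower ones were Kcnj5 (0.740 and 0.578), Kcnc2 (0.730 and 0.583), Kcns1 (0.657 and 0.524), Kcnd1 (0.648 and 0.520) and Kcns3 (0.697 and 0.587).

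Genes that work beside potassium channels had 8 connections in Ctr-OPCs and 4 after IFN-γ, over 30 listed of 34. Of those listed in a table, 20.8% and 13.8% had a connection, below the 31.7% and 33.1% of protein-coding genes. Lrrc55, an auxiliary subunit of the BK channel, had 2 and 0, with best scores of 0.117 and 0.0348. Adam23, which takes part in the complex of Kv1 channels with Lgi proteins, had 2 and 0, with 0.0748 and 0.0350, and Lgi3 had 2 and 1. Dlg4, a scaffold that clusters Kv1 channels, had 1 in each, at 0.110 and 0.121. Atp1b1, a β subunit of the sodium pump, had a connection only in IFN-γ-OPCs, with best scores of 0.0425 and 0.121. The voltage-gated sodium channel genes, 11 listed of 14, had 0 and 2 connections, and the voltage-gated calcium channel genes, 19 listed of 26, had 3 and 5. Per gene listed in a table, potassium channel genes had 0.384 and 0.411 connections, sodium channel genes 0 and 0.200, calcium channel genes 0.273 and 0.278, channel partners 0.333 and 0.138, and all protein-coding genes 0.401 and 0.417. These sets are small, and their differences were not tested.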

How the data were processed

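The authors mapped the HiChIP reads on mm10 with HiC-Pro, which also removed duplicates, and ran the activity-by-contact model once per condition. Activity was deposited as a signal, combining ATAC-seq with CUT&RUN for H3K27ac. The ABC score was deposited as a fraction, the share of a gene's summed activity times contact. The power-law score and the promoter quantile were likewise deposited as a share and a rank between 0 and 1, and contacts (5 kb bins) as score values without a fixed unit. How the conditions were scaled to each other beyond default settings is not given in the sources used here. The tables list no pair scoring under 0.02, no promoter element, and no gene with a promoter quantile under 0.4, so a missing pair or gene may lie below these limits. Where the deposited libraries were pooled, no spread, depth or test was available.

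Genes were named by Ensembl identifier through GENCODE M21 (GRCm38, the same assembly as mm10). Elements of both tables were matched if they overlapped by at least 1 bp. The gene total was the numerator of the score divided by the score. Contact ratios used the distance-adjusted contact, while contacts given as values are unadjusted. Genes named were channels known from oligodendroglia, those with 3 or more connections or a difference of 2 or more, the 5 highest and 5 lowest ratios of gene total, those behind the 5 highest scores per table, and genes in 1 table with a connection. Further members with a connection, or past a fold or quantile step, were named after their values were seen. Some genes that the rule takes in are not reported here by name or shown in the plots, but stay in all counts. Members and lists were chosen with earlier results of these data known. Alternatives were another cut-off, all pairs, the power-law score, 50% reciprocal overlap and division by table medians. Scripts (Python 3.11.15, pandas 2.3.3, NumPy 2.4.6, matplotlib 3.10.9) were tested on the Ctr-OPC values with known changes put in. Element positions were left as they were, so the matching of shifted or split elements was not tested.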

Additional observations from a re-analysis of the deposited data

How the results depend on the processing

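No paired analysis was possible because each condition was deposited as 1 table made from its 3 libraries, and leaving out a library was likewise not possible. Of the alternative values, 42 kept their direction where they had one and stayed, for counts, within 1.5 times the reported number and, for shares, within the reported interval, while 11 moved further and 4 changed sign. With a cut-off of 0.1 the potassium channel genes had 12 connections in the Ctr-OPC table and 9 in the IFN-γ-OPC table, 4 genes had more and 7 fewer, and 41.7% of the former were shared. Counting all deposited pairs gave 160 and 190, with more for 41 genes and fewer for 23. With the power-law score of distance there were 65 and 70, with more for 16 genes and fewer for 11, although these come only from pairs the ABC score had already kept in the tables. Division by table medians turned the median log2 ratio of gene total to 0.038, of activity to 0.053 and of contact to -0.025. Over the 15 pairs above a cut-off of 0.1 the median was 0.14 for activity, which also turned its sign, and 0.22 for contact. The cause of these differences was not tested. Alternatives chosen after seeing the data left out pairs whose contact equals the power law (27 and 28 connections, 9 genes with more and 9 with fewer) or the most active element (27 and 30, 10 with more and 8 with fewer), or added up overlapping elements (median log2 ratio of activity -0.055, as reported). As depth and replicate spread are unknown, differences near the cut-off have no error to be read against.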
